A study of Mus musculus with 12 samples.

Results

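The 86 genes described here are the variable (V) segments of the mouse immunoglobulin kappa light chain, measured in the seminal vesicles of adult males that had or had not received diethylstilbestrol (DES), a synthetic estrogen, as newborns. The members are every gene whose single platform symbol starts with Igkv, with no filter on signal, and they are 86 of the 30062 genes named on the array. Each is represented by the 1 probe set that carries its symbol alone. The names place them in 20 subgroups, the first number in a name, with 25 in subgroup 4 and 8 subgroups holding 1 member each. RefSeq lists 162 Igkv genes, all on chromosome 6, and classes 79 of the 86 as V segments and 7 as V segment pseudogenes.

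A kappa light chain is one of the 2 kinds of antibody light chain. Its gene is assembled in developing B cells, when 1 V segment is joined to a J (joining) segment by the recombination enzymes, and the joined exon is then spliced to the constant segment Igkc. Each B cell clone therefore transcribes mainly the V segment it has joined, and plasma cells, the antibody-secreting descendants of B cells, hold very large amounts of that RNA. In a mixed tissue the V segments in use report on many clones at once. Subgroups gather segments of similar sequence, so RNA of one segment can also bind the probes of a near relative. The members are therefore not independent of each other, and the signal of a single member is uncertain to that extent. The array does not tell joined from unjoined transcripts.

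RNA was taken at week 10 from the seminal vesicles of males of strain C57BL/6. Newborns had received DES in corn oil under the skin, 2 µg per pup on each of days 1 to 5, or corn oil alone (vehicle). The mice lacked estrogen receptor alpha, the product of Esr1 (aERKO), or were wild type (WT), and the allele of the knockout is not given in the labels. The groups were WT_DES, WT_vehicle, aERKO_DES and aERKO_vehicle, with 3 Affymetrix arrays each and 12 in all. Whether the 3 arrays of a group stand for 3 animals is not stated in the labels. A p-value therefore speaks only of the variation among these arrays, which could be technical, and the small number of arrays limits precision. The comparisons ask how the adult gland differs after exposure to DES at birth, and whether that response needs the receptor.

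All values are the deposited log2 levels, on which a difference of 1 is a 2-fold difference. Levels of different probe sets are not comparable, so only differences are set side by side between members. The tissue label was checked with 10 genes of the seminal vesicle's secretory epithelium, whose mean level over the list was 13.29 to 13.65 on the WT_DES arrays, 13.76 to 13.81 on WT_vehicle, 13.76 to 13.86 on aERKO_DES and 13.77 to 13.90 on aERKO_vehicle. Esr1 itself was 0.76 lower in aERKO_vehicle than in WT_vehicle (limma adjusted p = 0.0100) and 0.76 lower in aERKO_DES than in WT_DES. The array also carries 5222 negative control probe sets, and their 95th percentile lay between 8.21 and 8.50 on the 12 arrays. Esr1 lay below that percentile on all 12 arrays. A gene was called where limma's adjusted p over all 30062 genes was below 0.05.

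In wild type seminal vesicles, the kappa V segments as a family were far higher after neonatal DES. Of the 86 members, 79 were called higher in WT_DES than in WT_vehicle, 1 was called lower and 6 were not called. Of all genes, 30.7% were called, 13.7% as higher and 17% as lower. The median difference was 3.81 over the members (range -0.38 to 7.14), against -0.08 over all genes. On single arrays the median level of the 86 members was 8.97, 8.90 and 9.16 in WT_DES and 5.43, 4.96 and 5.26 in WT_vehicle. All 3 WT_DES medians lay above all 3 WT_vehicle medians. For 80 members the 3 WT_DES values lay wholly above the 3 WT_vehicle values, which was so for 18.9% of all genes. In bulk RNA of this kind, more cells of a type and more RNA per cell cannot be told apart.

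The differences were large as well as frequent. Called differences of at least 2-fold numbered 71, set against 3.24% of all genes. Of these, 58 members were at least 4-fold higher (1.2% of all genes), 38 at least 16-fold higher (0.359%) and 10 at least 64-fold higher (0.0699%). Ranked by the fitted difference in WT over all 30062 genes, members took 5 of the first 10 places, 23 of the first 50 and 35 of the first 100. Heavy chain V segments (Ighv), the matching family of the antibody's other chain, took 4 of the first 10, 23 of the first 50 and 52 of the first 100.

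Igkv5-43 had the largest fitted difference over all genes, measured from a low WT_vehicle level. Its levels were 9.86, 9.67 and 11.19 in WT_DES and 3.14, 3.00 and 3.15 in WT_vehicle, a difference of 7.14 ± 0.29 (SE, limma adjusted p = 1.98e-09). The groups did not overlap, and the third WT_DES array stood above the other two. Igkv5-48, of the same subgroup, had 10.39, 10.80 and 10.30 in WT_DES and 3.09, 3.83 and 3.32 in WT_vehicle, a difference of 7.09 ± 0.18 (limma adjusted p = 3.23e-11). Its 3 WT_DES values lay close together. With single arrays left out, the lowest difference was 6.67 for Igkv5-43 and 6.93 for Igkv5-48. Their order therefore depends on the arrays used. In both members the WT_vehicle level was near the lower end of the negative controls, whose 5th percentile was 2.89 to 2.92 on these arrays.

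**Figure D1:**
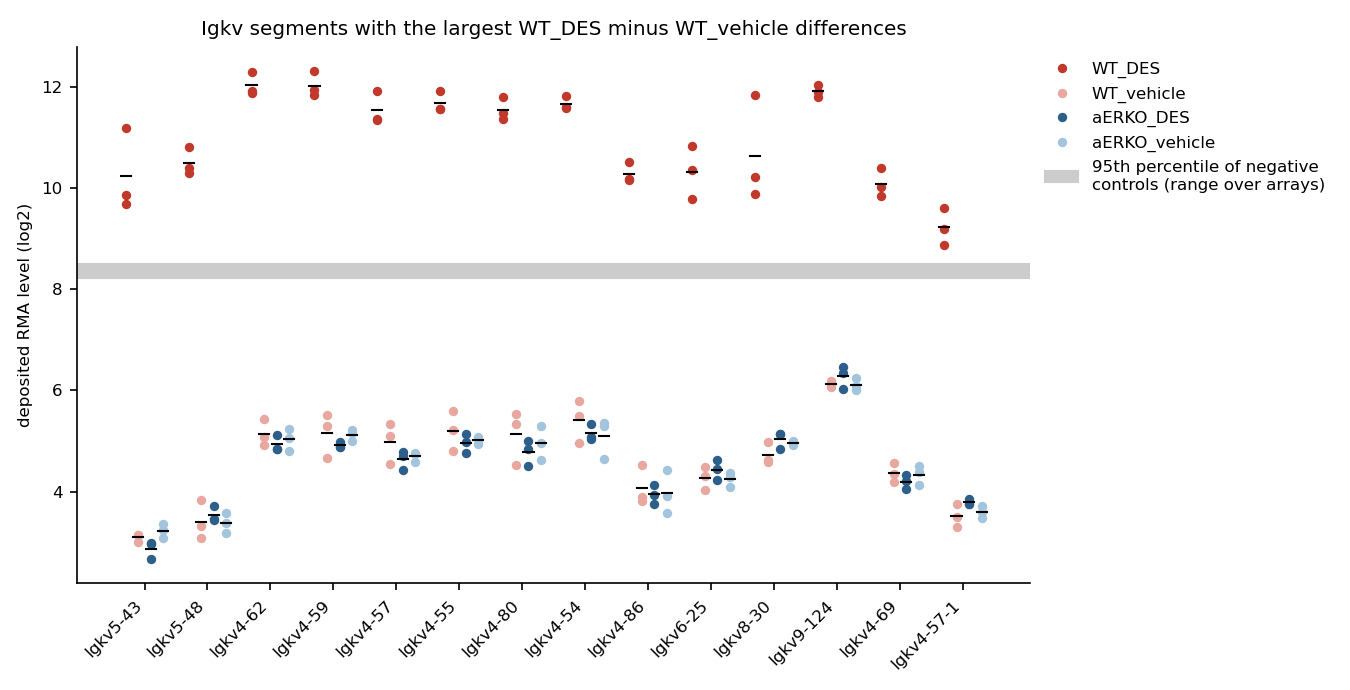
Deposited log2 level (vertical axis) of the 14 members with the largest WT_DES minus WT_vehicle difference, with a point for each array, a bar at each group mean (3 arrays per group) and the range over arrays of the negative controls' 95th percentile in grey. All WT_DES points lie above the grey band and all points of the other 3 groups lie below it, for instance 9.67 to 11.19 in WT_DES and 3.00 to 3.15 in WT_vehicle for Igkv5-43.

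Subgroup 4 supplied 9 of the 14 largest differences. Igkv4-62 had 11.88, 11.91 and 12.30 in WT_DES and 5.43, 4.93 and 5.07 in WT_vehicle, a difference of 6.88 ± 0.16 (limma adjusted p = 1.70e-11). Igkv4-59 had 11.92, 11.83 and 12.30 in WT_DES and 5.51, 4.66 and 5.29 in WT_vehicle, a difference of 6.86 ± 0.18 (limma adjusted p = 4.11e-11). In both, the groups stood far apart and the spread within a group was small beside the difference. The other 7 were Igkv4-57, Igkv4-55, Igkv4-80, Igkv4-54, Igkv4-86, Igkv4-69 and Igkv4-57-1, with differences of 5.71 to 6.55. No WT_DES array of these 7 was below 8.88, and no WT_vehicle array was above 5.80.

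The remaining 3 of the 14 belong to other subgroups. Igkv6-25 had 10.35, 9.79 and 10.82 in WT_DES and 4.03, 4.49 and 4.31 in WT_vehicle, a difference of 6.05 ± 0.21 (limma adjusted p = 4.69e-10). Igkv9-124 had 11.90, 11.79 and 12.03 in WT_DES and 6.10, 6.18 and 6.07 in WT_vehicle, a difference of 5.79 ± 0.11 (limma adjusted p = 4.54e-12). This was the smallest adjusted p of any member in that comparison, and the arrays of each group lay close together. Igkv8-30 differed by 5.91 ± 0.36 and is described with the uneven members further on.

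How far the members stood above background bears on the size of these folds. Above the 95th percentile of the negative controls on all 3 arrays were 49 members in WT_DES, against 0 in WT_vehicle, 0 in aERKO_DES and 0 in aERKO_vehicle. Of all genes, 19.4% passed that mark on all 3 WT_DES arrays and 17.1% on all 3 WT_vehicle arrays. The mean of Igkv4-62 in WT_DES lay 3.74 above the mark, that of Igkv9-124 lay 3.62 above it, and that of Igkv5-43 lay 1.96 above it. Apart from 1 array for 1 member, levels in WT_vehicle therefore lay within the range of the negative controls, where the array gives little more than an upper limit, and the full log2 differences rest on those low values. In WT_DES, 30 members were above the mark on no array, among them every member that was not called.

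The fitted differences are given here by subgroup. No difference between subgroups was tested, and each value also depends on a WT_vehicle level within the negative controls. Subgroup 5 had the highest median difference of the subgroups with more than 1 member, 5.64 (5 of 5 called higher, range 1.20 to 7.14). Subgroup 4 followed with a median of 5.35 (24 of 25 higher, range 0.60 to 6.88). Only Igkv4-92 of subgroup 4 was not called, at 4.91 ± 0.43 in WT_DES and 4.31 ± 0.32 in WT_vehicle (SD, n = 3 each, limma adjusted p = 0.0670). Its groups overlapped.

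Subgroups 3, 6, 9 and 17 had medians between 3.67 and 4.16, and each of their members was called higher. Subgroup 3 was the most even of these, with 5 differences between 2.66 and 4.51. Subgroup 6 had 6 members between 2.84 and 6.05, subgroup 9 had 3 between 1.71 and 5.79, and subgroup 17 had 3 between 1.10 and 5.40. Within subgroups 6, 9 and 17 the responses thus covered a wide range.

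Lower medians were found in subgroups 1 (1.66, 6 of 7 higher), 2 (1.53, 4 of 5), 8 (1.36, 6 of 8), 12 (1.13, 5 of 5), 13 (2.71, 2 of 3) and 14 (1.70, 3 of 3). Large and small differences stood side by side in several of them. Subgroup 8 held Igkv8-30 at 5.91 beside Igkv8-18 at 0.29, and subgroup 12 held Igkv12-98 at 4.31 beside the pseudogene Igkv12-47 at 0.45. Besides subgroup 18, 7 subgroups had 1 member, and each of these was called higher, by 0.45 in Igkv11-125, 0.74 in Igkv20-101-2, 1.21 in Igkv7-33, 1.93 in Igkv15-103, 3.88 in Igkv19-93, 3.99 in Igkv16-104 and 4.73 in Igkv10-95.

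**Figure D2:**
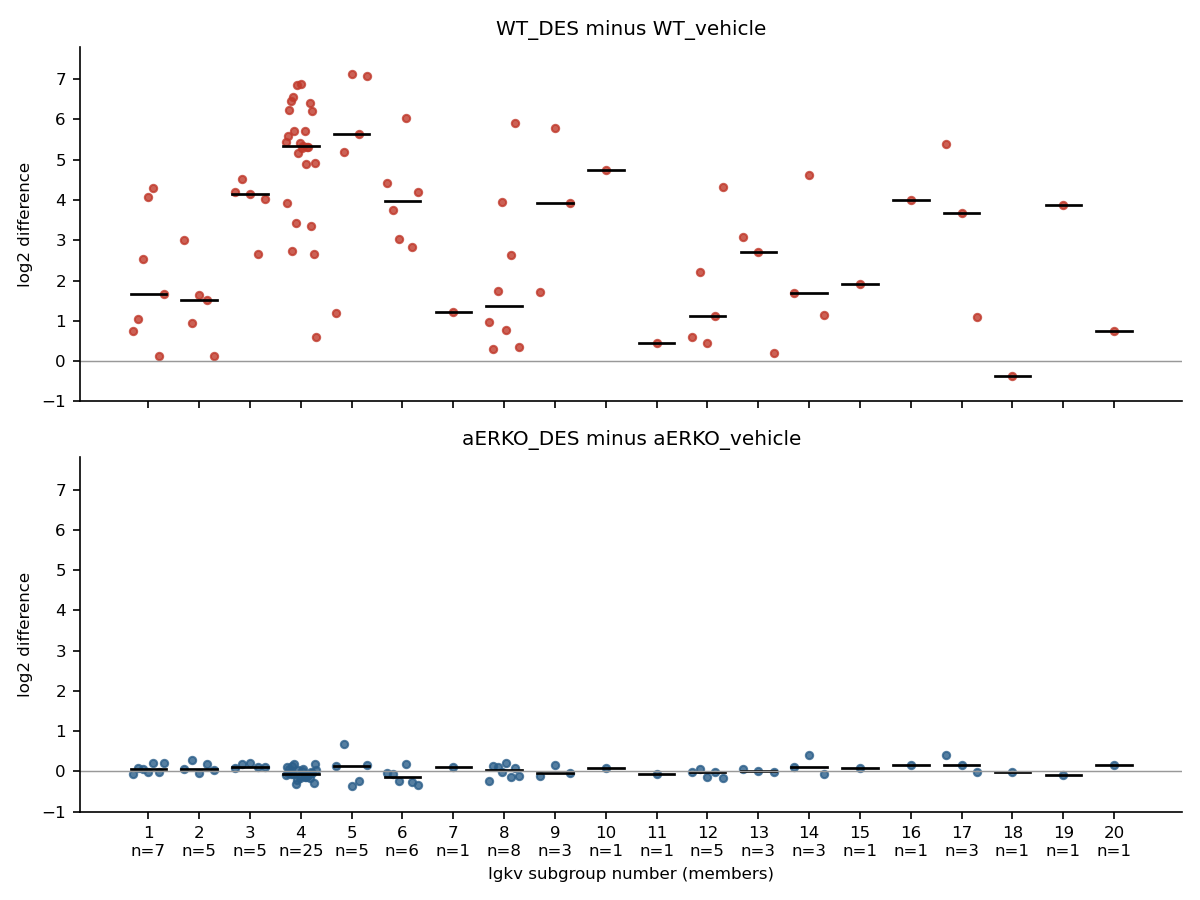
Log2 difference (vertical axis) of each member by subgroup number (horizontal axis, with the number of members), for WT_DES minus WT_vehicle above and aERKO_DES minus aERKO_vehicle below, with a point for each member and a bar at each subgroup median. The WT points reach 7.14 and the medians of subgroups 4 and 5 are 5.35 and 5.64, whereas the aERKO points run from -0.35 to 0.68 in all 20 subgroups.

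The members that did not rise were few and scattered over subgroups. Igkv18-36, the only member of subgroup 18, had 5.53, 5.57 and 5.58 in WT_DES and 5.92, 5.94 and 5.94 in WT_vehicle. Its 2 groups did not overlap, and the difference of -0.38 ± 0.13 was called lower (limma adjusted p = 0.0444). This call is lost under several other settings given in the closing section, and all 6 values lay below the 95th percentile of the negative controls.

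The 6 members not called in WT were Igkv4-92, Igkv8-34, Igkv8-18, Igkv13-87, Igkv2-95-2 and Igkv1-35. Igkv8-34 had 7.83, 7.61 and 8.02 in WT_DES and 7.43, 7.30 and 7.72 in WT_vehicle, with overlapping groups and a difference of 0.34 ± 0.12 (limma adjusted p = 0.0549). Igkv8-18 had 5.58, 5.74 and 5.69 in WT_DES and 5.16, 5.42 and 5.57 in WT_vehicle, a difference of 0.29 ± 0.11 (limma adjusted p = 0.0545). Both lay just outside the threshold. For Igkv13-87, Igkv2-95-2 and Igkv1-35 the differences were 0.20, 0.14 and 0.13, with 95% intervals that included 0 and reached at most 0.50. With the arrays scaled to the hybridization controls, which puts the median of all genes at 0.27 in place of -0.08, Igkv8-34, Igkv8-18, Igkv13-87 and Igkv2-95-2 passed the threshold as higher, by 0.49 to 0.70.

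Igkv15-103, Igkv8-34, Igkv12-46, Igkv2-109, Igkv2-137 and Igkv2-116 were picked for their deposited level in WT_vehicle, which does not order the segments by amount of RNA. All but Igkv8-34 were called higher in WT_DES. Igkv15-103 had 10.39, 9.74 and 10.39 in WT_DES and 8.49, 7.93 and 8.34 in WT_vehicle, a difference of 1.93 ± 0.18 (limma adjusted p = 6.91e-06). It was the only member that passed the negative controls' 95th percentile on any WT_vehicle array, and it did so on 1 of 3. Igkv12-46 had 9.43, 9.15 and 9.41 in WT_DES and 7.21, 7.05 and 7.13 in WT_vehicle, a difference of 2.20 ± 0.11 (limma adjusted p = 1.69e-08). Igkv2-109, Igkv2-137 and Igkv2-116 differed by 3.00, 1.52 and 1.65, and in none of these 5 did the groups overlap.

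Pseudogene segments carry defects that keep them from coding a working chain. Of the 7 members that RefSeq classes so, 5 were called higher, with a median difference of 0.74 (range 0.14 to 2.74). Of the 79 V segments, 74 were called higher and 1 lower, with a median of 3.96. Igkv4-56 had the largest pseudogene difference, with 8.91, 9.08 and 9.22 in WT_DES and 6.45, 6.32 and 6.21 in WT_vehicle, 2.74 ± 0.12 in all (limma adjusted p = 5.79e-09). Its WT_DES values stood clear of WT_vehicle, and it belongs to subgroup 4, whose other members nearly all rose further. The part that binding of related RNA had in the pseudogene signals was not tested.

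The second number in a segment's name gives its place in the locus. In RefSeq's annotation of assembly GRCm38.p6 the order of these numbers matched the order of the 86 genes along the chromosome, with number 1 nearest the 5 J segments. Members numbered 1 to 49 had a median difference of 2.93 (26 of 30 higher), those numbered 50 to 92 a median of 5.30 (28 of 30) and those numbered 93 to 137 a median of 2.23 (25 of 26). These bounds were set after the values were seen, at the ends of the stretch that holds all 25 subgroup 4 members. Without subgroup 4, the other 5 members of the middle stretch had a median of 1.66. The 6 members numbered 33 to 38 lie next to each other among the members and were all low, with differences of 1.21 for Igkv7-33, 0.34 for Igkv8-34, 0.13 for Igkv1-35, -0.38 for Igkv18-36, 1.20 for Igkv5-37 and 0.60 for Igkv12-38. They belong to 6 different subgroups, and Igkv5-39, the next by number, differed by 5.20.

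**Figure D3:**
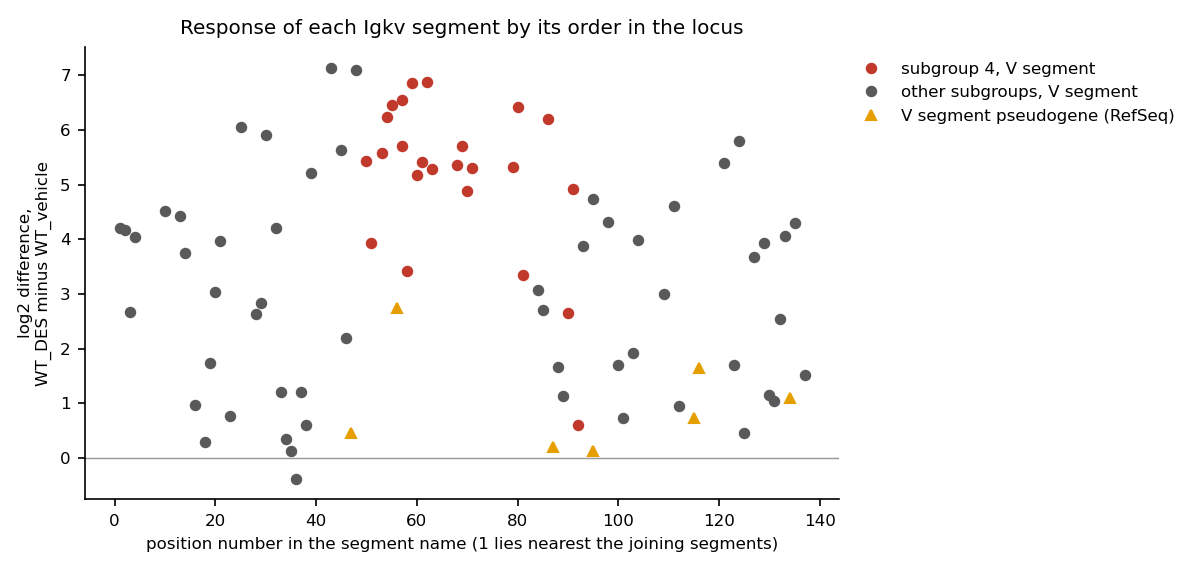
WT_DES minus WT_vehicle log2 difference (vertical axis) of the 86 members by position number in the segment name (horizontal axis, 1 nearest the J segments), with subgroup 4 V segments in red, other V segments in grey and pseudogenes as yellow triangles. Subgroup 4 fills the stretch from 50 to 92, where the median of all members is 5.30, and the members numbered 33 to 38 lie between -0.38 and 1.21.

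The 3 WT_DES arrays were not even. The third array was at least 2-fold higher than both other arrays in 6 members, set against 0.951% of all genes, whereas no member was at least 2-fold higher than both others on the first or the second. The 6 were Igkv8-21, Igkv8-30, Igkv5-37, Igkv5-43, Igkv8-19 and Igkv5-45, which are also the 6 with the largest SD in WT_DES, and they come from subgroups 5 and 8 only. Igkv8-21 had 9.33, 9.24 and 11.62 in WT_DES and 6.03, 5.69 and 6.59 in WT_vehicle, a difference of 3.96 ± 0.49 (limma adjusted p = 6.71e-05). Igkv8-30 had 10.21, 9.87 and 11.83 in WT_DES and 4.59, 4.97 and 4.62 in WT_vehicle. Igkv5-45 had 8.67, 8.74 and 9.89 in WT_DES and 3.70, 3.36 and 3.33 in WT_vehicle. In each, the third WT_DES array stood apart, but the first and second were also well above every WT_vehicle array.

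Differences of 2-fold or more were not shared by the whole family. Between the first and second WT_DES arrays 0 members differed by 2-fold or more (0.14% of all genes). Over the members, the third array minus the first had a median of 0.19, against 0.04 over all genes. The third minus the second had a median of 0.26, against 0.07. The third array was the highest of the 3 in 51 of 86 members and the lowest in 19. It was also the highest for 47.5% of all genes. The third aERKO_DES array was likewise the highest of its group in 51 members and for 47.3% of all genes. These values were 42 of 86 and 39.2% for the third aERKO_vehicle array. They were 28 of 86 and 37.2% for the third WT_vehicle array. The median SD of the members over the WT_DES arrays was 0.23, against 0.12 over all genes, and it was 0.18, against 0.07, in WT_vehicle. Igkv5-37 depended most on the third WT_DES array, with 4.66, 5.03 and 6.42 in WT_DES and 4.18, 4.06 and 4.27 in WT_vehicle. Its difference of 1.20 ± 0.35 (limma adjusted p = 0.0226) was 0.68 without the third WT_DES array (limma adjusted p = 0.0306). Its call was lost when only the 2 WT groups were fitted or when the first or the second WT_vehicle array was left out.

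**Figure D4:**
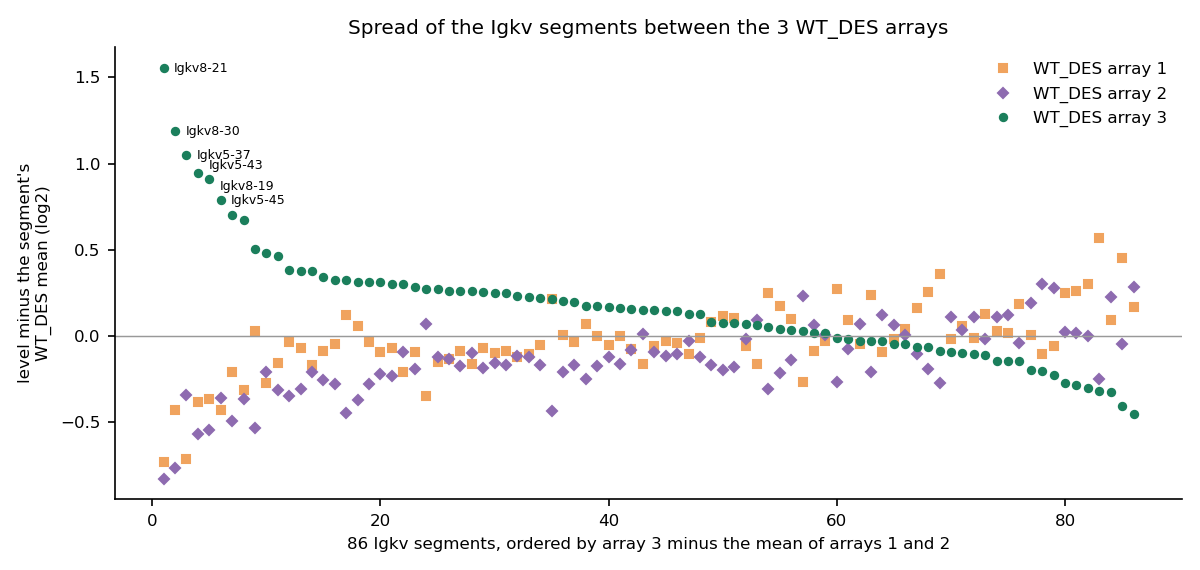
Level of each of the 86 members on each WT_DES array minus the member's mean over the 3 WT_DES arrays (vertical axis, log2), ordered along the horizontal axis by how far the third array lies from the mean of the others. The 6 named members, from subgroups 5 and 8, are at least 2-fold higher on the third array than on either other one, and for 19 members the third array is the lowest.

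WT_vehicle also had an array that differed in places. The first WT_vehicle array was the highest of its group for 16 of the 25 subgroup 4 members, whose median levels on the 3 arrays were 5.33, 4.53 and 5.07. It was the highest for 42 of all 86 members and for 27.1% of all genes. Igkv1-135 had 7.17, 5.87 and 5.82 in WT_vehicle, and was the only member at least 2-fold higher on 1 array of that group than on both others. In WT_DES it had 10.49, 10.41 and 10.84, so that it differed by 4.29 ± 0.29 (limma adjusted p = 3.04e-07) all the same.

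Without estrogen receptor alpha, no kappa V segment responded to DES by the same test. limma called 0 of the 86 members and 0% of all genes in aERKO_DES against aERKO_vehicle, and 3 members had an unadjusted p below 0.05 (1.64% of all genes did). The median difference was -0.00 over the members, with a range of -0.35 to 0.68, and 43 of 86 differences were above 0. On single arrays the median level of the members was 5.09, 5.12 and 5.15 in aERKO_DES and 5.14, 5.04 and 5.23 in aERKO_vehicle. These medians interleave. The 95% intervals of the single members' differences ran at the extremes to -1.08 and 1.05, so changes of up to about that size were not detectable in the least even members.

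Igkv5-43 illustrates this, with 2.97, 2.67 and 2.98 in aERKO_DES and 3.09, 3.25 and 3.35 in aERKO_vehicle, a difference of -0.35 (95% interval -0.98 to 0.27). Igkv4-62 had 4.84, 4.84 and 5.12 in aERKO_DES and 5.06, 4.81 and 5.24 in aERKO_vehicle, a difference of -0.10 (-0.44 to 0.23). In both, the 6 values lay far below the 3 WT_DES values. The largest difference was that of Igkv5-39, which had 5.54, 5.28 and 5.16 in aERKO_DES and 4.48, 4.62 and 4.83 in aERKO_vehicle. Its groups did not overlap, but the difference of 0.68 was not called (unadjusted p = 0.00139, limma adjusted p = 0.9996). In the 2 aERKO groups 6 members lay wholly higher and 6 wholly lower after DES, and over all genes 6.11% did not overlap in either direction.

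The difference between the 2 responses was tested directly. It was called for 75 members, all with a lower response in aERKO than in WT, and for 14.3% of all genes, 8.84% of all genes being lower. The median of the difference was -3.81 over the members. The most negative values were those of Igkv5-43 (-7.49 ± 0.41, limma adjusted p = 7.76e-08), Igkv4-59 (-7.06), Igkv4-62 (-6.99) and Igkv5-48 (-6.92). The 4 highest values were 0.35 for Igkv18-36, -0.11 for Igkv2-95-2, -0.15 for Igkv8-18 and -0.15 for Igkv1-35, of which none was called. The 11 members not called had WT differences between -0.38 and 1.20, and they include all 6 that were not called in WT.

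The genotypes were also compared within each treatment. limma called 0 members in aERKO_vehicle against WT_vehicle (0.0133% of all genes), and 6 had an unadjusted p below 0.05 (3.67% of all genes). The differences ran from -0.52 to 0.38 with a median of 0.00. After DES, 79 members were lower and 1 was higher in aERKO_DES than in WT_DES, against 41.4% of all genes called and 16.9% called lower. The median there was -3.70, and the 1 higher member was Igkv18-36 at 0.40 (limma adjusted p = 0.0273). These comparisons share arrays with those above and so are not separate evidence.

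The rest of the antibody machinery was read from lists of named genes. Of the kappa J and constant segments only Igkj3 has a probe set with a single symbol, and it had a difference of 2.40 ± 0.19 in WT (limma adjusted p = 1.14e-06) and 0.17 in aERKO. All 4 heavy chain constant segments with single names were called higher in WT_DES, against 13.7% of all genes. Ighg2b, of an IgG subclass, differed by 5.29 ± 0.08, Ighm, of IgM, by 3.59 ± 0.17, Ighg1 by 1.25 and Ighe, of IgE, by 0.43. All 4 genes for joining and carrying antibody were also called higher. Jchain, which links the units of IgM and of IgA polymers, differed by 3.76 ± 0.17, and Pigr, the epithelial receptor that carries those polymers into secretions, by 3.92 ± 0.16. Fcgrt, the neonatal receptor for IgG, differed by 0.76 and Fcamr, a receptor for IgM and IgA, by 0.46. In aERKO none of these 9 genes was called, and their differences lay between -0.03 and 0.17. Ighg1, Ighe and Fcamr passed the negative controls' 95th percentile on no WT_DES array.

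Genes of B cell precursors were near background. Of 5 genes of recombination and the surrogate light chain, 0 were called higher in WT_DES and 1 lower. The lower one was Igll1, a surrogate light chain component of precursor B cells, at -0.37 ± 0.10 (limma adjusted p = 0.0130). Rag2, a part of the recombination enzyme, Dntt, which adds bases at the joints, and Vpreb1 and Vpreb2, of the surrogate light chain, had differences between -0.31 and -0.07 that were not called. All 5 genes lay below the 95th percentile of the negative controls on all 12 arrays. The list's median was -0.23, and with the arrays scaled to the hybridization controls it was 0.12, with 0 of 5 called and Igll1 at -0.01.

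Markers of B cells were higher together in WT_DES. Of 13 B cell genes, 12 (92.3%) were called higher and 0 lower, against 13.7% and 17% of all genes, with a median difference of 1.00. Apart from Cd72 on 1 WT_DES array, these genes passed the negative controls' 95th percentile on no array. Their summed linear level was 1876 to 2370 on the WT_DES arrays and 1017 to 1046 on WT_vehicle. It was 1015 to 1168 on aERKO_DES and 944 to 1088 on aERKO_vehicle. A sum of this kind gives most weight to the probe sets with the highest levels. Ms4a1, which codes for CD20, differed by 2.85 ± 0.09, Bank1, a B cell scaffold protein, by 2.38, Cd79b, a part of the B cell receptor, by 1.54 and Cr2, the complement receptor of mature B cells, by 1.11.

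Plasma cell genes were mixed. Of 14, 6 were called higher and 3 lower in WT_DES, with a median of 0.24. These are 42.9% and 21.4% of the list, against 13.7% and 17% of all genes. Slamf7, a surface receptor of plasma cells and other leukocytes, differed by 1.92 ± 0.11 and Mzb1, a chaperone of antibody folding, by 1.37 ± 0.12. Mzb1 passed the negative controls' 95th percentile on no WT_DES array, and Slamf7 on 1. Derl3 and Fkbp11, proteins of the endoplasmic reticulum that other secretory cells also use, were lower by 1.54 and 1.24 on the log2 scale. The summed linear level of the 14 was 6993 to 9112 on WT_DES and 8628 to 9778 on WT_vehicle. It was 9106 to 9270 on aERKO_DES and 8619 to 9807 on aERKO_vehicle. This sum is carried by genes with high levels, such as Derl3 and Fkbp11 (means of 10.64 and 9.92 in WT_vehicle). Slamf7 and Mzb1, at 6.32 and 6.55 there, add little, so the sum does not follow the genes called higher. The secretory epithelium list, with 5 of 10 genes called lower and 0 higher (median -0.25), moved in the same samples, but with the arrays scaled to the hybridization controls 1 was called lower and its median was 0.11. What part either cell type had in the members' levels was not tested.

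Among 11 T cell genes, 8 (72.7%) were called higher and 0 lower in WT_DES, with a median of 0.45. Their summed linear level was 1488 to 1940 on WT_DES and 944 to 1052 on WT_vehicle. Apart from Cd3g on 1 WT_DES array, these genes passed the negative controls' 95th percentile on no array. T cell receptor V segments, which are joined by the same enzymes in T cells, gave 13 higher and 0 lower of 117 with a median of 0.06 (45 higher and a median of 0.42 with the arrays scaled to the hybridization controls). That is 11.1% higher, against 13.7% of all genes, and 38.5%, against 29.9%, with that scaling. Ighv segments gave 110 higher and 0 lower of 117 with a median of 3.81. Of 10 genes that draw or sustain lymphocytes, 8 (80%) were called higher and 0 lower. Cxcl13, the chemokine that draws B cells into follicles, differed by 5.44 ± 0.25, Tnfsf13b, the B cell survival factor BAFF, by 1.76, Ccl28, a chemokine for antibody-secreting cells of mucosae, by 1.31 and Cxcl12 by 1.03. Ccl28 passed the negative controls' 95th percentile on no WT_DES array, and Tnfsf13b on 1. Lta and Ccr10 of the same list were not called. In aERKO 0 genes of any of these lists or families were called, as was true of all genes.

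**Figure D5:**
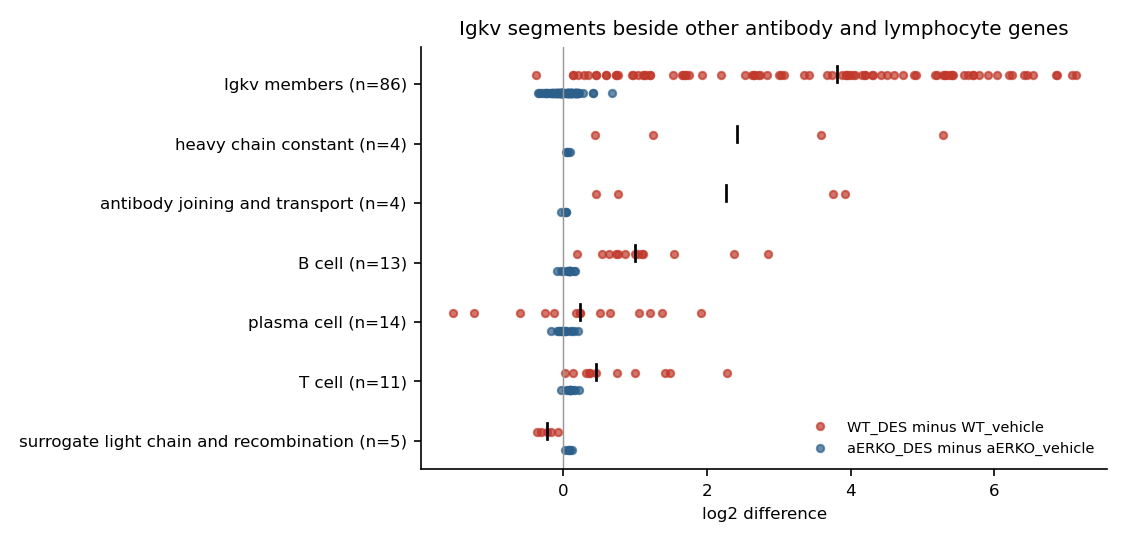
Log2 difference (horizontal axis) of each member and of each gene of 6 antibody and lymphocyte lists, for WT_DES minus WT_vehicle (red, with a bar at the list median) and aERKO_DES minus aERKO_vehicle (blue). In WT the median is 3.81 for the members, 1.00 for the B cell list and 0.24 for the plasma cell list, while the blue points of every list lie between -0.35 and 0.68.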

How the data were processed

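RNA of 12 samples was hybridized to Affymetrix arrays, from 300 ng of total RNA per the labels' protocols. The deposited values are log2 levels per probe set that, per the submitters' processing notes, the authors computed by RMA with Affymetrix Expression Console. RMA corrects background, equalizes the arrays' distributions and gives 1 value for the probes of each set. No coordinates are printed, as the genome build of the array annotation is not given in the sources used here. Equalizing the arrays can shift unchanged genes when many others move one way.

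Of 72688 probe sets, 30604 have 1 gene symbol in the platform annotation, 2146 have several and 39938 have none. A symbol repeated for a probe set counted once, and 1121 symbols were updated through RefSeq's table of GRCm38.p6. Of the 30062 genes, 430 had more than 1 probe set and took the one with the highest mean. Groups and replicate numbers came from the sample titles. One mean per group was fitted to all 12 arrays with lmFit and eBayes of limma 3.58.1 under R 4.3.3, without a filter, and 5 comparisons were tested two-sided with Benjamini-Hochberg adjustment over the 30062 genes. Residual degrees of freedom were 8 and prior ones 4.32. With 3 arrays in each of 2 groups the smallest p of an exact permutation test is 0.1, so none was run. The script was checked on simulated data.

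The members and gene lists were chosen with earlier results of these data known. Members are named by these rules: the 14 largest and 6 smallest differences in WT, the 6 highest in WT_vehicle, the 4 largest and 4 smallest differences between the responses, members called in aERKO or between vehicle groups, and the 6 with the largest SD in WT_DES. From each list at most 4 genes with the largest called differences are given values. Other named members, and the position bounds, were picked with their values in view. Alternatives were a filter, the mean of a gene's probe sets, moderation with trend and robust settings, only the 2 groups compared, 3 other scalings, the replicate number as a block, arrays left out, and a fold of at least 2. Testing every annotated probe set was added after the data were seen.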

Additional observations from a re-analysis of the deposited data

Results flagged for a closer look

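The response to DES differed between the genotypes, by limma's test of the difference itself, for 75 members, against 14.3% of all genes (8.84% lower). All 75 were lower in aERKO than in WT. Beyond the 4 members with the most negative values (Igkv5-43 at -7.49, Igkv4-59 at -7.06, Igkv4-62 at -6.99 and Igkv5-48 at -6.92), this held for the other 10 of the 14 members that rose most in WT. Their differences, aERKO minus WT, were -6.60 for Igkv4-57, -6.58 for Igkv4-80, -6.53 for Igkv4-55, -6.23 for Igkv4-86, -6.19 for Igkv4-54, -5.87 for Igkv6-25, -5.85 for Igkv4-69, -5.83 for Igkv8-30, -5.63 for Igkv9-124 and -5.52 for Igkv4-57-1.

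The same test passed for 5 of the 6 members with the highest level in WT_vehicle, at -2.95 for Igkv2-109, -2.14 for Igkv12-46, -1.84 for Igkv15-103, -1.69 for Igkv2-116 and -1.35 for Igkv2-137. It also passed for the uneven members Igkv5-45 at -5.88, Igkv8-21 at -3.98 and Igkv8-19 at -1.64, but not for Igkv5-37, at -1.07.

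Besides the 86 probe sets used, 15 further ones name an Igkv segment together with other symbols, 4 of them naming the members Igkv9-124, Igkv4-53, Igkv8-30 or Igkv6-14, and these were not used in the comparisons above. All 15 were called higher in WT_DES than in WT_vehicle, against 13.7% of all genes, with differences of 1.92 to 5.88 and a median of 3.69. In aERKO 0 of them were called, with a median of 0.01. Which of their named segments they measured was not tested.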

How the results depend on the processing

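Signal over background limits the values, since in the 3 groups other than WT_DES no member passed the negative controls' 95th percentile on all 3 arrays, and Igkv15-103 alone passed it on 1 array of WT_vehicle and of aERKO_DES. All 110 counts of called members under the alternatives stayed within 1.5 times their value. In WT the count was 71 to 84 of the members tested over all settings, and in aERKO and between vehicle groups it was 0 throughout.

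The median difference in WT, 3.81, was 4.11 with the filter, which kept 72 members (9 called members were among those removed), 3.66 after quantile normalization, 4.17 after scaling to the hybridization controls and 3.53 without both DES arrays numbered 3. Leaving out single arrays gave 3.53 to 3.88. The median difference of the responses, -3.81, was -4.04 with the filter and -4.03 with the hybridization controls, and -3.86 to -3.71 with single arrays left out. The median of aERKO_DES against WT_DES, -3.70, was -4.05 with the filter, -3.92 with the hybridization controls and -3.45 without both DES arrays numbered 3, and -3.77 to -3.47 with single arrays left out. These 3 medians kept their sign. That last scaling put the median of all genes in WT at 0.27, against -0.08 as deposited, with 8975 genes higher and 308 lower, against 4119 and 5116. Shifting the arrays to the same median gave 3687 and 7072.

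Of the named members' values in WT under the alternatives, 574 of 603 kept their side of the threshold, 15 passed it, 14 no longer did and 0 changed sign. The losses were those of Igkv18-36, whose difference ran from -0.39 to -0.02 and its adjusted p by limma from 0.0044 to 0.937, and of Igkv5-37. Their cause was not tested.

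The labels do not say whether shared replicate numbers pair the samples. Deviations from the group means correlated at -0.32 to 0.44 in the 18 pairs of arrays with the same number (median 0.06), and 6 exceeded 0.1. In the 36 pairs with different numbers they correlated at -0.53 to 0.49 (median -0.02), and 9 exceeded 0.1. All pairs of arrays numbered 3 correlated above 0, at 0.009 to 0.44. An effect shared by the arrays numbered 3 was not tested. With the replicate number as a block, limma called 81 members in WT, 78 in the difference of responses and 80 in aERKO_DES against WT_DES.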
